A study of Arabidopsis thaliana with 22 samples.

Results

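In Arabidopsis thaliana leaf 10, 204 probe sets of 203 genes stayed near their primordium level until the leaf was expanding and then changed between the expanding and the mature leaf. They were chosen from 6782 probe sets annotated to exactly 1 gene, among 12511 measured. The choice used the ambient-CO2 arrays only: the mean log2 level of expanding leaves was within 0.5 of that of primordia, and the mean of mature leaves was at least 0.8 away from that of expanding leaves. Of these members, 74 were higher in mature leaves (rising members) and 130, of 129 genes, were lower (falling members). Among probe sets without exactly 1 gene, a further 52 higher and 141 lower ones met the same limits and are not described, because no single gene could be assigned to them.

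All plants were wild type, cultivar Col-0. All spent their first 7 days at 370 ppm CO2, in light of 300 µmol m-2 s-1 for 10 h at 21 °C and in darkness for 14 h at 18 °C. They were then assigned at random to a chamber at 750 ppm CO2 (elevated) or one at 370 ppm (ambient). Leaf 10 was taken as dissected primordia (4 elevated and 4 ambient arrays, 20 plants pooled per replicate), as a leaf in rapid expansion (3 and 3 arrays) and as a fully expanded mature leaf (4 and 4 arrays). With 2 chambers for 2 CO2 levels, CO2 and chamber cannot be told apart. The series asks whether the CO2 response of the leaf depends on its developmental stage.

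A leaf primordium consists mainly of dividing cells with small, undeveloped plastids. As the leaf expands, cells enlarge and plastids become chloroplasts, which needs transcription and translation inside the plastid, import of nuclear-encoded proteins and synthesis of chlorophyll from tetrapyrroles. A mature leaf no longer builds this machinery at the same pace; it exports sugar, turns over protein and lipid and can recycle cell contents through autophagy.

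Each value is a log2 level set against the array's own median, so a difference of 1 is a 2-fold change. Levels of different probe sets cannot be set against each other on this scale. Below, the early step is expanding leaves minus primordia and the maturation step is mature minus expanding leaves. The leaves are bulk tissue, so fewer cells of a type and less RNA per cell cannot be told apart. The marker lists of shoot meristem, phloem, xylem and epidermis had no probe set with exactly 1 gene, so the tissue labels could be checked only in part: the cell cycle genes measured, PRL and AUR1 (2 of 27 listed), had both fallen at the early step at elevated CO2, and all 10 measured genes of the light reactions and Calvin cycle (of 58 listed) had risen. The 1 measured guard cell marker, AT1G22690 (of 6 listed), and the 1 measured trichome marker, TRY (of 4), rose at that step as well, by 2.77 and 0.74. TRY was also lower at elevated than at ambient CO2 in mature leaves (-0.66); its part in the CO2 values of the members there was not tested. Among the mature arrays, elevated replicates 3 and 4 stood apart on the second principal component (7.83% of the variance), at 36.3 and 27.7. Ambient replicate 1, an array that also chose the members, lay apart on the other side at -7.7. The remaining mature arrays were at 6.9 to 14.9. Without ambient replicate 1 the rule took 95 rising and 184 falling members. The main counts and many single values are also given without elevated replicates 3 and 4. Values given only with these 2 arrays can be smaller without them.

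The median level over the rising members is given first for every array; its ambient values follow from the rule. In primordia it was -1.22, -1.17, -1.26 and -1.29 at elevated CO2 and -1.22, -1.21, -1.15 and -1.20 at ambient CO2. In expanding leaves it was -0.94, -0.82 and -0.63 at elevated CO2 and -1.16, -1.19 and -1.02 at ambient CO2, and in mature leaves 0.03, -0.27, 0.41 and 0.31 at elevated CO2 and -0.38, 0.01, -0.02 and 0.05 at ambient CO2. Every mature array was above every expanding array, and the elevated expanding arrays were above the ambient ones. The falling members had medians of 1.30, 1.24, 1.40 and 1.31 in elevated primordia and 1.22, 1.28, 1.25 and 1.31 in ambient primordia. In expanding leaves they were at 0.92, 0.74 and 0.68 at elevated CO2 and 1.05, 1.24 and 1.08 at ambient CO2, and in mature leaves at 0.02, 0.04, -0.76 and -0.48 at elevated CO2 and 0.39, -0.04, 0.08 and -0.15 at ambient CO2. Here the elevated expanding arrays lay below the ambient ones, and the 2 lowest mature arrays were elevated replicates 3 and 4.

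**Figure D1:**
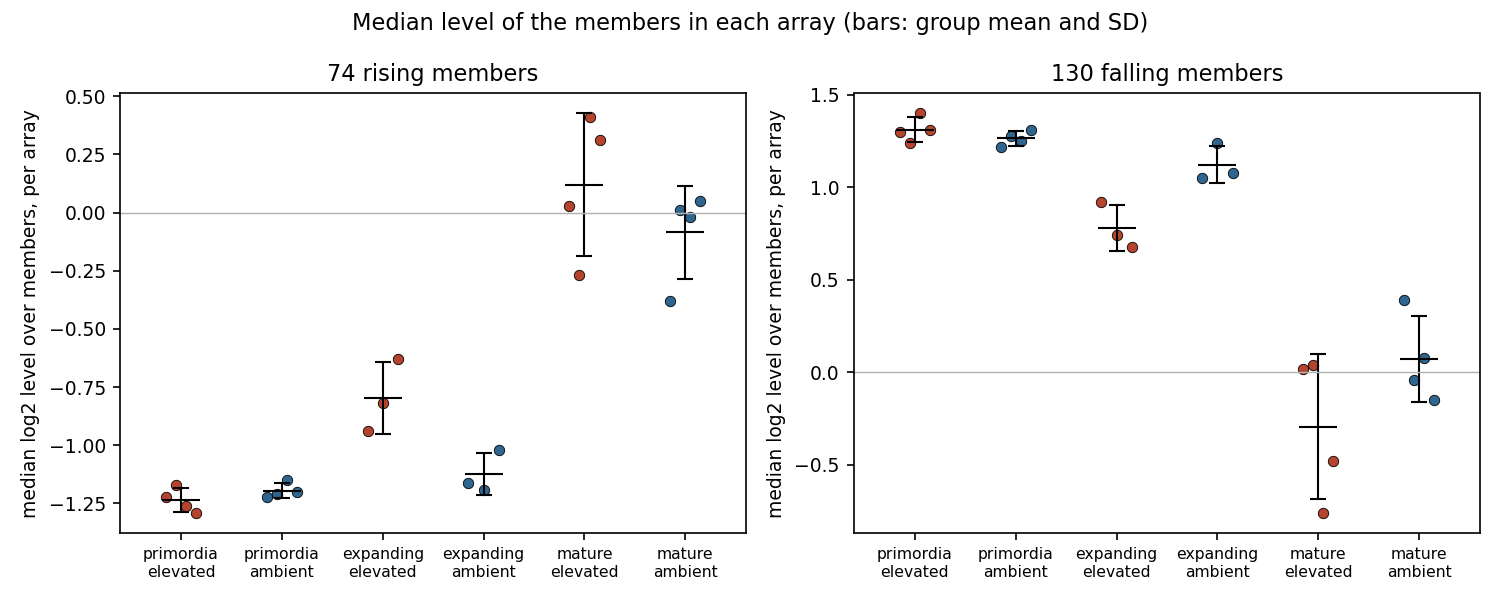
Median log2 level over the 74 rising members (left) and the 130 falling members (right) in each of the 22 arrays, by stage and CO2 level; points are arrays, bars the group mean and SD. In expanding leaves the elevated arrays (-0.94 to -0.63 on the left, 0.68 to 0.92 on the right) lie between the primordia and the mature arrays.

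At elevated CO2, whose arrays had no part in the choice, the late change was present as well. Of the 74 rising members, 59 rose from the expanding to the mature leaf in limma at an adjusted p under 0.05 and 0 fell, while 16.9% of all probe sets rose. Their median maturation step was 0.78 (range 0.07 to 2.06), above 0 for all 74, against -0.03 for all probe sets. Of the 130 falling members, 122 fell and 0 rose, while 20.9% of all probe sets fell, and their median was -0.85 (range -4.46 to 0.22). All mature arrays lay beyond all expanding arrays in the same direction for 59 rising members (16.7% of all probe sets lay above) and 117 falling ones (20.7% lay below). Without mature elevated replicates 3 and 4, 47 rising members rose and 107 falling members fell, with medians of 0.63 and -0.68. Control transcripts gave a measure of RNA quality, the log2 signal at the 3-prime minus that at the 5-prime end, which was 1.99 to 2.36 in elevated mature and 2.32 to 2.58 in elevated expanding leaves; its part in the maturation step was not tested.

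By the rule, the same step at ambient CO2 had a median of 0.97 (0.80 to 1.69) in rising members and -1.01 (-4.26 to -0.80) in falling members. A step of at least 0.8 was kept at elevated CO2 by 34 rising members (3.14% of all probe sets rose by as much) and 74 falling ones (5.2% of all fell by as much).

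At the early step the elevated plants shared only in part the flat pattern that the rule had imposed on the ambient ones. The limit was set on the ambient arrays, so some spread beyond it in other arrays follows from the choice. Of the rising members, 41 rose and 2 fell between elevated primordia and elevated expanding leaves, while 36% of all probe sets rose and 33.9% fell. Their median early step was 0.41, against 0.02 for all probe sets. Of the falling members, 72 fell and 4 rose, with a median of -0.43. An early step within 0.5 was found for 39 rising and 71 falling members, and for 47.1% of all probe sets. Both limits of the rule were met in the elevated arrays as well by 18 rising and 45 falling members, that is, by 24.3% and 34.6% of them. Of all 6782 probe sets with exactly 1 gene, 0.678% and 1.61% met them.

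Over primordia to mature leaves, the median change of the rising members was 1.28 at elevated and 1.09 at ambient CO2, and that of the falling members was -1.32 at elevated and -1.16 at ambient CO2. In the elevated plants, a median of 36.1% of that change in rising members and 32% in falling members lay before the expanding stage. In the ambient plants these medians were 3.77% and 7.96%, which the flat limit keeps low. The elevated values include mature elevated replicates 3 and 4, and the whole change was not computed without them. The elevated maturation step alone had medians of 0.78 and -0.85 with these 2 arrays and 0.63 and -0.68 without them. How far the larger elevated change and its shares rest on them was not tested.

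The rule was also applied to the elevated arrays in place of the ambient ones, as a description of how much the choice of arrays sets the pattern. It took 46 rising and 109 falling probe sets. The 18 rising ones that both choices share were 39.1% of the elevated choice, and the 45 falling ones 41.3%. The genes taken on elevated arrays had ambient early steps with medians of 0.001 (rising) and 0.04 (falling). The ambient choice, in turn, had elevated early steps with medians of 0.41 and -0.43.

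**Figure D2:**
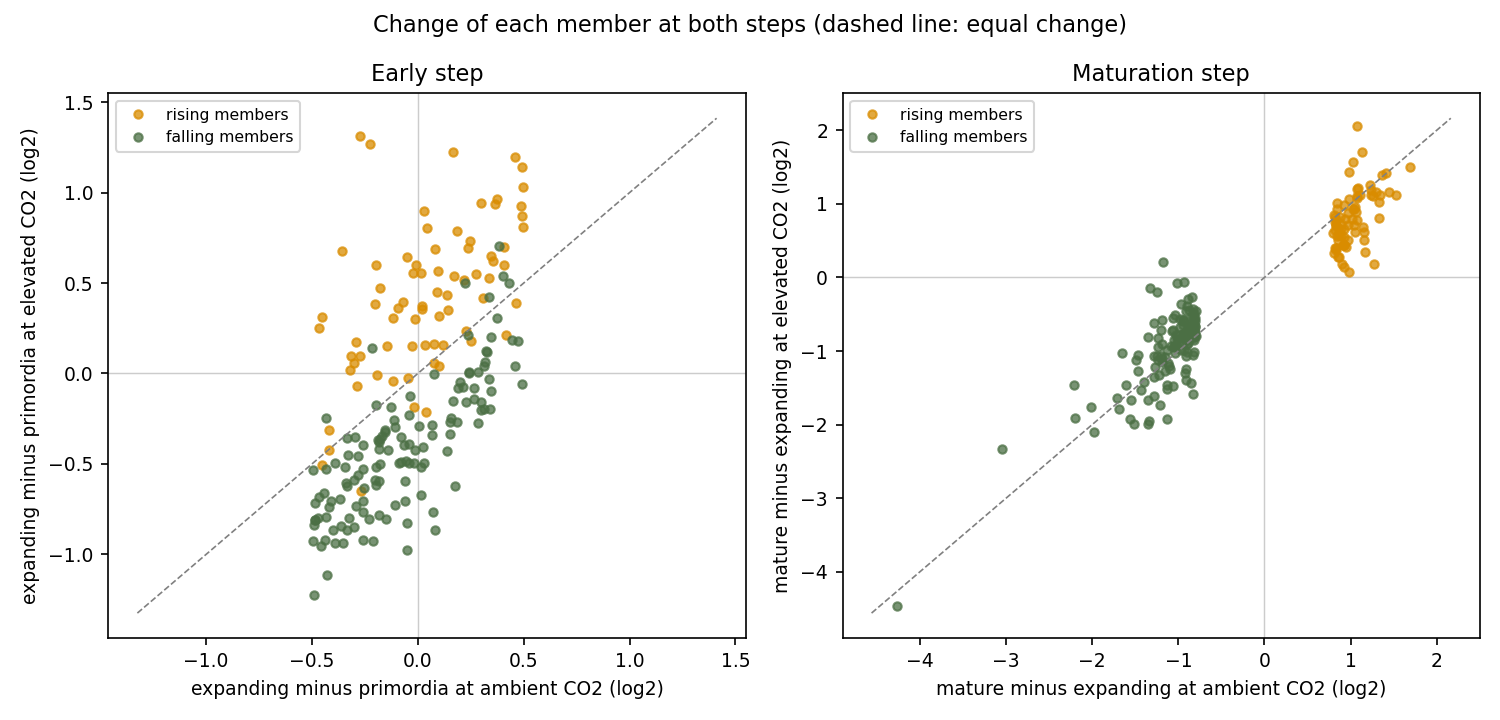
Log2 change of each of the 204 members at ambient CO2 (horizontal) and elevated CO2 (vertical), for the early step (left) and the maturation step (right); each point is a probe set and the dashed line marks equal change. Early steps lie within 0.5 at ambient CO2 by the rule and reach from -1.23 to 1.31 at elevated CO2, whereas at the maturation step all rising members lie above 0 and all falling members but ChiC below 0 at elevated CO2.

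A symbol was given for 29 falling members. The 18 grouped here by a role in chloroplasts or mitochondria are described first, and other members may act there too. Such role groups were put together by hand with the values known, only to order the description, and how common these roles are among all genes with a symbol was not counted. All 18 fell at the maturation step at elevated CO2 (background 20.9% with all arrays), with changes of -2.33 to -0.55 and a median of -0.83. Without mature elevated replicates 3 and 4, 17 did, with a median of -0.68.

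Among the 3 enzymes of tetrapyrrole synthesis, GSA1 makes 5-aminolevulinate, the first committed precursor, and HEME1 and HEME2 are uroporphyrinogen decarboxylases on the shared route to chlorophyll and heme. HEME1 was at 1.27, 1.27, 0.57 and 0.89 in elevated mature leaves, against 2.40, 2.08 and 1.84 in elevated expanding leaves and 2.26, 2.22, 2.36 and 1.98 in elevated primordia. At ambient CO2 it was at 1.68, 1.15, 1.30 and 1.09 in mature leaves, against 2.35, 2.62 and 2.51 in expanding leaves and 2.31, 2.35, 2.02 and 1.92 in primordia. Mature arrays were below all younger ones at both CO2 levels, and the elevated maturation step was -1.11 ± 0.17 (SE; limma adjusted p 6.88e-05). GSA1 was at 2.21, 2.28, 1.91 and 1.72 in elevated mature leaves, against 2.67, 2.73 and 2.59 in elevated expanding leaves, a step of -0.63 ± 0.12 (adjusted p 0.000477). Without mature elevated replicates 3 and 4 its step was -0.42. HEME2 fell by 0.73 ± 0.14, and for none of these 3 genes was the early step at elevated CO2 called (-0.20 to -0.08).

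The riboflavin enzymes PyrD, a pyrimidine deaminase, and COS1, lumazine synthase, fell at both steps in the elevated plants. COS1 was at 1.56, 1.58, 1.36 and 1.45 in mature, 2.27, 2.15 and 2.04 in expanding leaves and 2.49, 2.58, 2.67 and 2.57 in primordia at elevated CO2, which are 3 separate ranges. Its changes were -0.42 ± 0.10 at the early and -0.67 ± 0.10 at the maturation step. For PyrD the changes were -0.73 ± 0.17 and -0.55 ± 0.17. The later one was no longer called without mature elevated replicates 3 and 4 (-0.26, adjusted p 0.228, the highest of the alternatives, from 0.00386) or without expanding elevated replicate 2 (-0.47).

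All 8 members grouped under organelle gene expression fell at the maturation step at elevated CO2, with a median of -0.76 (-1.48 to -0.58). At the early step 6 of them had already fallen, as had 55.4% of all falling members and 33.9% of all probe sets. RAP, needed for maturation of plastid 16S rRNA, had a maturation step of -0.72 ± 0.17, and RH39, a helicase that processes plastid 23S rRNA, one of -0.73 ± 0.14. The pentatricopeptide repeat proteins OTP81 of the plastid and OTP87 of the mitochondrion, both RNA editing factors, were at -0.58 ± 0.14 and -0.88 ± 0.17, and MRL7-L, required for chloroplast development, at -0.65 ± 0.13. PDF1A and MAP1C remove the formyl group and the first methionine from new organelle proteins and fell by 0.93 ± 0.14 and 0.78 ± 0.12. MAP1C shows the pattern in all arrays: it was at 2.16, 2.36, 2.00 and 1.97 in elevated mature leaves, against 3.11, 2.78 and 2.81 in elevated expanding leaves and 3.41, 3.31, 3.53 and 3.34 in elevated primordia. The plastid-encoded rps15, a protein of the small ribosomal subunit and the only member encoded in an organelle, fell by 1.48 ± 0.32; its early step was 0.42 ± 0.32 and not called.

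All 5 other members grouped as plastid proteins fell at the elevated maturation step, with a median of -1.67. Cpn60beta2, a subunit of the chaperonin that folds proteins in the plastid, was at 0.90, 1.79, 0.19 and 0.27 in elevated mature leaves, against 3.49, 3.34 and 2.54 in elevated expanding leaves. In ambient leaves it was at 1.56, 0.52, 0.25 and 0.90 when mature, against 3.50, 4.11 and 3.94 when expanding. The ranges did not overlap at either CO2 level, and the elevated step was -2.33 ± 0.31, 5.04-fold lower (adjusted p 1.3e-05). Without mature elevated replicates 3 and 4 it was -1.78. NANA, a chloroplast aspartic protease, was at -1.97, -1.60, -2.40 and -2.77 in elevated mature, against -0.40, -0.38 and -0.50 in elevated expanding leaves (-1.75 ± 0.21), with an early step of 0.21 ± 0.21 that was not called. UPP, the plastid uracil phosphoribosyltransferase that salvages pyrimidines, fell by 1.46 ± 0.20, GPDHp, a plastid glycerol-3-phosphate dehydrogenase, by 1.67 ± 0.16, and CYTC6A, a cytochrome of the thylakoid lumen, by 1.67 ± 0.17.

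Of the 33 listed genes of plastid biogenesis and chlorophyll synthesis 5 were measured, of which Cpn60beta2 and GSA1 are members. The other 3 also fell at the maturation step at elevated CO2: CHLM (magnesium protoporphyrin methyltransferase, -0.36 ± 0.12), PORB (protochlorophyllide oxidoreductase, -0.81 ± 0.12) and FTSZ2-1 (a plastid division protein, -0.58 ± 0.09). At ambient CO2 CHLM and PORB had early steps of 0.76 and 0.75, beyond the flat limit, and all 3 had maturation steps smaller than 0.8. The 10 measured genes of the light reactions and the Calvin cycle held no member: at elevated CO2 all 10 rose at the early step, and at the maturation step 1, PSBY of photosystem II, fell (-0.39 ± 0.12) and 9 were not called.

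**Figure D3:**
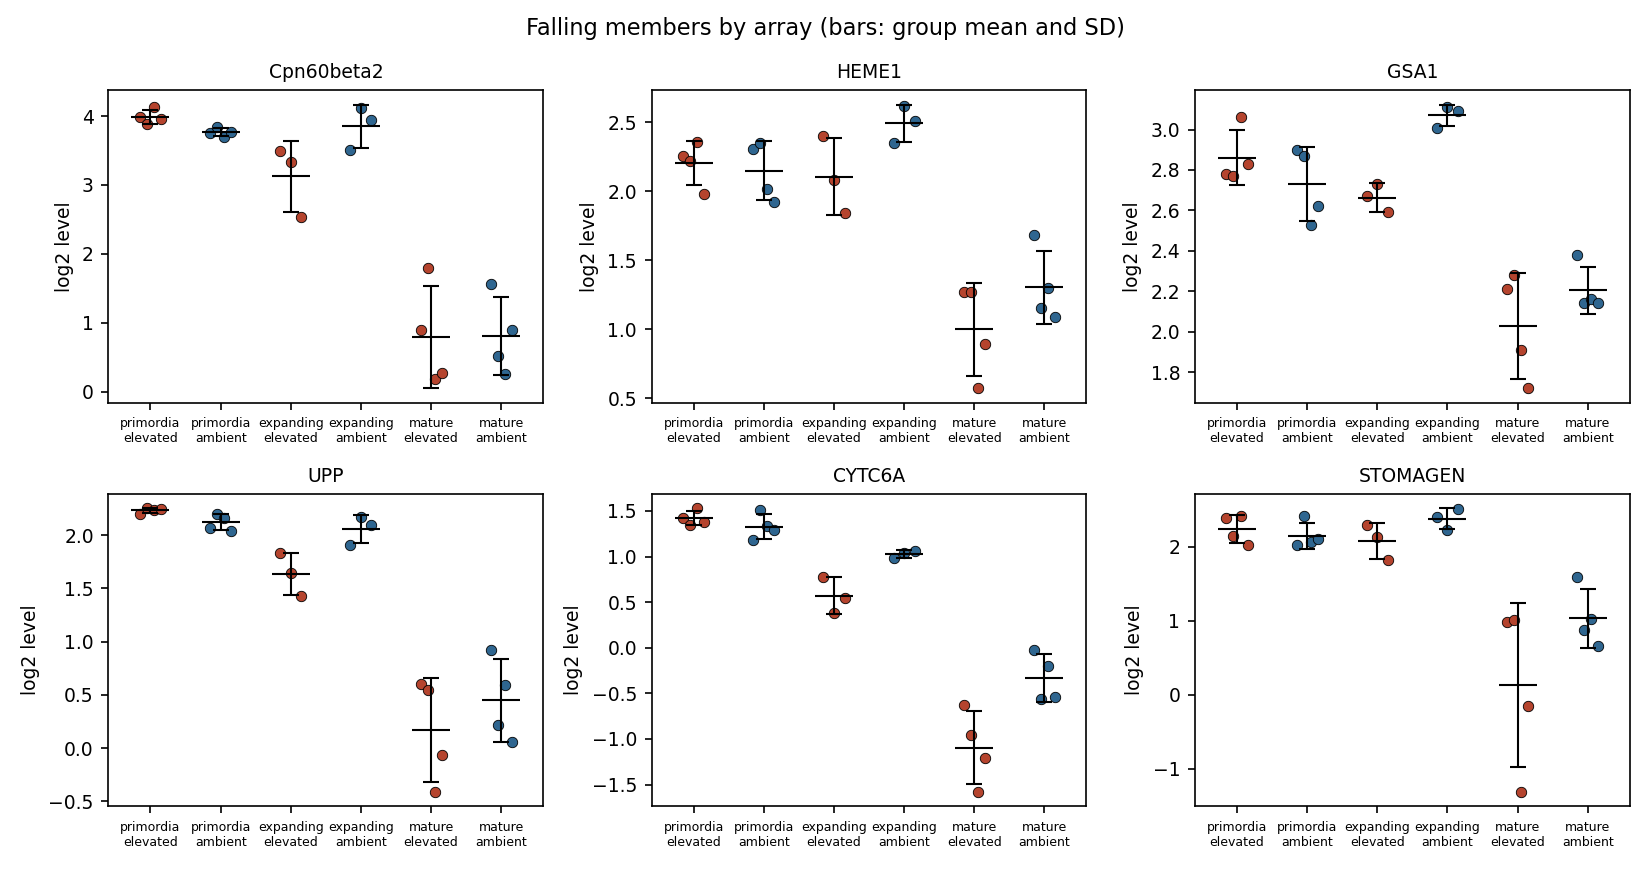
Log2 level in each array of 6 falling members, with the group mean and SD; Cpn60beta2, HEME1, GSA1, UPP and CYTC6A act in plastids and STOMAGEN is a secreted peptide. For each gene all 4 mature arrays lie below all expanding arrays of the same CO2 level, and in STOMAGEN elevated mature replicates 3 and 4 (-1.31 and -0.15) are the lowest of all arrays.

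Another 4 falling members act in growth, the cell wall or stomatal development. Of the listed genes of cell expansion and the primary wall, 11 were measured and 0 were members; at the elevated maturation step 7 of them fell and 2 rose. Of the leaf and stomatal regulators 5 were measured, of which 3 fell and 1, STOMAGEN, was a member. STOMAGEN, a peptide from the inner leaf tissue that raises stomatal density, was at 0.99, 1.01, -1.31 and -0.15 in elevated mature leaves, against 2.29, 2.13 and 1.82 in elevated expanding leaves. In ambient leaves it was at 1.59, 0.87, 1.03 and 0.66 when mature, against 2.40, 2.23 and 2.51 when expanding. Its elevated step of -1.95 ± 0.36 (adjusted p 0.000301) was -1.09 (adjusted p 0.00117) without mature elevated replicates 3 and 4, in a range of adjusted p from 5.56e-05 to 0.00433 over the alternatives. The endoglucanases GH9C2 and GH9B8, which cut glucan chains of the cell wall, rose by 0.50 ± 0.15 and 0.50 ± 0.17 at the elevated early step and fell by 0.80 ± 0.15 and 1.52 ± 0.17 at the elevated maturation step, so at elevated CO2 they were highest in the expanding leaf. EXO, a growth-promoting protein responsive to brassinosteroid, was at 0.59, 1.83, 2.14 and 0.00 in elevated mature leaves, against 1.22, 1.02 and 1.42 in elevated expanding leaves. These ranges overlap, and its step of -0.08 ± 0.34 was not called (adjusted p 0.874).

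Of the other falling members with a symbol, SBTI1.1, a subtilisin-like protease, fell by 2.00 ± 0.27 at the elevated maturation step, CYP71B22, a cytochrome P450, by 1.46 ± 0.28, iqd21, of a calmodulin-binding family, by 1.61 ± 0.21, and AZG1, a purine transporter, by 1.03 ± 0.13. ZW9 and DAL1 fell by 1.28 ± 0.14 and 0.66 ± 0.14, and DAL1 was at -0.43 without mature elevated replicates 3 and 4.

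The largest late fall belonged to AT4G29020, which the annotation gives by its locus alone. It was at -0.29, -0.75, -1.95 and -1.0 in elevated mature leaves, against 3.71, 3.32 and 3.36 in elevated expanding and 4.29, 4.31, 4.21 and 4.11 in elevated primordia. In ambient plants it was at 1.00, -0.81, -0.32 and -0.57 in mature leaves, against 3.83, 4.22 and 4.20 in expanding leaves and 4.50, 4.39, 4.31 and 4.18 in primordia. The elevated step was -4.46 ± 0.33, 22-fold lower. AT3G05730 (-1.91 ± 0.20), AT4G19380 (-2.10 ± 0.22), AT4G16140 (-1.64 ± 0.31), AT4G38950 (-1.79 ± 0.17) and AT5G19750 (-1.03 ± 0.12) completed, with Cpn60beta2, CYP71B22, NANA and UPP, the 10 largest falls of the ambient plants, and all 10 fell at elevated CO2. AT4G16140 was at -0.92 without mature elevated replicates 3 and 4. The 2 probe sets of AT5G50740, both members, had elevated steps of -1.43 and -1.59.

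Symbols were given for 10 rising members, of which 9 rose at the maturation step at elevated CO2 (background 16.9% with all arrays), with a median over the 10 of 0.75. Without mature elevated replicates 3 and 4, 8 did, with a median of 0.54. All 4 members of protein turnover and vesicle traffic rose. UBC18, a ubiquitin-conjugating enzyme, was at 1.45, 1.09, 1.49 and 1.50 in elevated mature leaves, against 0.41, 0.47 and 0.47 in elevated expanding leaves and 0.19, 0.32, 0.30 and 0.33 in elevated primordia. In ambient plants it was at 1.12, 1.10, 1.12 and 1.10 in mature leaves, against 0.23, 0.29 and 0.26 in expanding leaves and 0.05, 0.20, 0.28 and 0.21 in primordia. Mature arrays were apart from all others, and the elevated step was 0.93 ± 0.09 (adjusted p 3.84e-07).

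SKP2A, an F-box protein that targets cell cycle factors for degradation, was at 0.03, -0.26, 0.73 and 0.51 in elevated mature leaves, against -1.06, -1.16 and -1.21 in elevated expanding leaves, a step of 1.40 ± 0.19 with an early step of 0.06 ± 0.19. Its maturation step was 1.03 without mature elevated replicates 3 and 4. VPS60.2, of the ESCRT machinery that sorts membrane proteins for breakdown, rose at both elevated steps, by 0.87 ± 0.15 and 0.66 ± 0.15. ATG8G, a ubiquitin-like protein of the autophagosome membrane, rose by 0.58 ± 0.18 at the maturation step (adjusted p 0.018). It was not called without mature elevated replicates 3 and 4 (0.41), without mature elevated replicate 3 (0.49) or without expanding elevated replicate 3 (0.51), with adjusted p between 0.00606 and 0.196 over the alternatives.

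In lipid and amine metabolism all 3 members rose. DPL1, the lyase that ends sphingolipid breakdown, was at -0.41, -0.87, 0.12 and 0.07 in elevated mature leaves, against -1.60, -1.27 and -1.31 in elevated expanding leaves (1.12 ± 0.20). DPL1 rose by 0.75 without mature elevated replicates 3 and 4. In ambient leaves it was at -0.95, -0.61, -0.40 and -0.63 when mature, against -1.72, -2.31 and -2.47 when expanding. AAPT2, an aminoalcoholphosphotransferase of phospholipid synthesis, rose by 0.57 ± 0.09 at elevated CO2. CuAO1, a copper amine oxidase that degrades polyamines, rose by nearly the same amount at each elevated step, 0.81 ± 0.14 and 0.79 ± 0.14. Of the remaining members with a symbol, DI19, a drought-induced zinc finger protein, rose at both elevated steps (0.73 ± 0.11 and 0.71 ± 0.11) and TRM18, of a family that recruits proteins to microtubules, at maturation alone among the called steps (1.20 ± 0.21). ARLA1C, a small GTPase, had an elevated step of 0.34 ± 0.18 that was not called (adjusted p 0.151).

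Among rising members known by their locus, AT3G23570 had the largest ambient step. It was at 2.59, 2.31, 2.76 and 2.66 in elevated mature leaves, against 1.01, 1.23 and 0.99 in elevated expanding leaves and 0.59, 0.80, 0.38 and 0.37 in elevated primordia. Its elevated changes were 0.54 ± 0.13 at the early and 1.51 ± 0.13 at the maturation step. AT5G64550 (1.16 ± 0.13), AT5G37540 (1.42 ± 0.32), AT3G22970 (1.11 ± 0.12), AT3G06780 (0.81 ± 0.16), AT3G13910 (1.03 ± 0.17) and AT1G62660 (1.16 ± 0.13) also rose at the elevated maturation step. AT5G37540 was no longer called without mature elevated replicates 3 and 4 (0.98, adjusted p 0.0508, the highest of the alternatives). AT1G34110, in the same 10 by its ambient step, was at 0.18 ± 0.21 and not called. The largest elevated step of a rising member was that of AT2G16660, 2.06 ± 0.18, after an early fall of 0.65 ± 0.18.

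Some members with a small elevated maturation step had a large elevated early step. AT3G50900 rose by 1.31 ± 0.31 at the elevated early step and changed by 0.07 ± 0.31 at maturation. Its elevated expanding arrays were at -1.39, 0.29 and -0.15, of which replicate 1 lay nearest the elevated primordia (-2.07, -1.51, -1.71 and -1.62) and the others nearest the elevated mature leaves (-0.14, -0.87, -0.21 and -0.16). AT2G31010 fell by 1.12 ± 0.12 at the elevated early step and changed by -0.07 ± 0.12 at maturation. Further large elevated early steps were those of AT3G60540 (1.27 ± 0.31), AT5G11600 (1.23 ± 0.18) and AT3G04950 (-1.23 ± 0.26), whose elevated maturation steps were not called (0.61, 0.44 and -0.46). AT2G36630 rose early by 0.56 ± 0.20 and was at 0.15 ± 0.20 at maturation.

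Values at the limits of the rule were close on both sides. Just inside the step limit were AT3G21360 (0.80) and AT3G05910 (0.81) among the rising members and AT4G17560 and AT5G14460 (both -0.80) among the falling ones. Just outside it were AT3G10250 (below the limit, 0.80 only after rounding), AT4G13160 (0.799), PDF1B (-0.799) and AT1G21580 (-0.798). Just inside the flat limit were AT2G15320 (0.497), AT1G77810 (0.496), AT3G61820 (-0.497) and AT5G45950 (-0.496). Just outside it were AT2G04410 (0.501), AT2G24550 (0.501), AT5G66470 (0.501) and AT3G63510 (0.502).

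The CO2 comparisons use the ambient arrays that chose the members, so their values at each stage are given as a description. In primordia, elevated minus ambient CO2 had a median of -0.04 in rising members and 0.05 in falling members. None was called, as for all but 1 of the 12511 probe sets (0.00799%), and 4 rising and 6 falling members had an unadjusted p under 0.05, a share near the 3.77% of all probe sets. The members with the smallest p there were AT2G20740 (-0.23 ± 0.10), AT2G38610 (-0.35 ± 0.12) and AT4G08330 (-0.32 ± 0.14) among the rising, and AT2G38660 (-0.46 ± 0.15), GH9C2 (-0.34 ± 0.14) and OTP81 (0.35 ± 0.14) among the falling members.

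In expanding leaves the rising members had a median CO2 change of 0.34, with 67 of 74 above 0 (44.1% of all probe sets), and the falling members one of -0.28, with 125 of 130 below 0 (55.9% of all). In limma 0 members were called, as were 0% of all probe sets, and 33 rising and 51 falling members had an unadjusted p under 0.05, against 14.7% of all probe sets. All elevated arrays lay above all ambient arrays for 33 rising members (7.43% of all probe sets), and below them for 72 falling members (12.9%). The sign was opposite to that of the ambient maturation step in 7 rising and 5 falling members and the same in the others. The ambient expanding arrays enter both the rule and this comparison, so the choice of members can itself move it in this direction.

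So that the array compared had no part in the choice, the rule was applied without 1 ambient expanding array and the elevated arrays were compared with the array left out, an alternative added after the data were seen. Without replicates 1, 2 and 3 in turn, the elevated mean minus the left-out array had medians of 0.17, 0.27 and 0.19 over the rising members and -0.18, -0.31 and -0.28 over the falling ones. All probe sets had medians of -0.02, -0.03 and -0.05. The shift kept its direction for each of the 3 arrays. Each comparison rests on 1 left-out array, and the other ambient arrays still chose the members. The members also differed from the main ones, with 89, 80 and 87 rising and 174, 119 and 128 falling. These values thus do not measure how much of the shift follows from the choice. For the rising members the shift was smaller than in the full comparison (0.34). For the falling members, at -0.28 in the full comparison, it was clearly smaller only without replicate 1. In mature leaves the same exercise, without ambient replicates 1, 2, 3 and 4 in turn, gave medians of 0.30, 0.01, 0.08 and 0.04 over the rising and -0.42, -0.07, -0.16 and -0.07 over the falling members. With mature ambient replicate 1 held out, the shift was thus as large as with any expanding array. That same measure of RNA quality was 2.32 to 2.58 in elevated and 2.27 to 2.52 in ambient expanding leaves. On the first principal component over all probe sets, elevated expanding arrays lay at -32.4 to -23.6 and ambient ones at -21.5 to -10.5, with primordia at 63.5 to 81.4 and mature leaves at -63.9 to -50.2. The elevated expanding arrays were thus nearer the mature leaves over all probe sets too, and the part of this in the members' shift was not tested.

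Single members with the smallest p in expanding leaves were AT1G21920, CuAO1 and AT5G11600 among the rising and AT3G44380, ChiC and ZW9 among the falling ones. CuAO1 was at -0.71, -0.57 and -0.58 in elevated, against -1.28, -1.38 and -1.42 in ambient expanding leaves, and the difference of 0.74 ± 0.15 had an adjusted p of 0.0962. The 2 groups did not overlap, and the ambient leaves were within the range of ambient primordia, -1.54 to -1.27. AT1G21920 was at 0.66, 0.65 and 0.60 in elevated, against 0.20, 0.12 and 0.22 in ambient expanding leaves (0.46 ± 0.09, adjusted p 0.0962). AT3G44380 was at -0.83, -0.88 and -0.77 in elevated, against -0.32, -0.38 and -0.32 in ambient expanding leaves (-0.49 ± 0.11, adjusted p 0.113). Of the plastid genes, GSA1 did not overlap either, at 2.67, 2.73 and 2.59 in elevated against 3.01, 3.11 and 3.09 in ambient expanding leaves, with a difference of -0.41 ± 0.13 (adjusted p 0.173). Among the 18 members described by an organelle role, 17 had a negative change in expanding leaves, with a median of -0.40, where 96.2% of all falling members and 55.9% of all probe sets had one. In mature leaves 17 had one as well, with a median of -0.16, against 77.7% of all falling members and 54.2% of all probe sets.

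**Figure D4:**
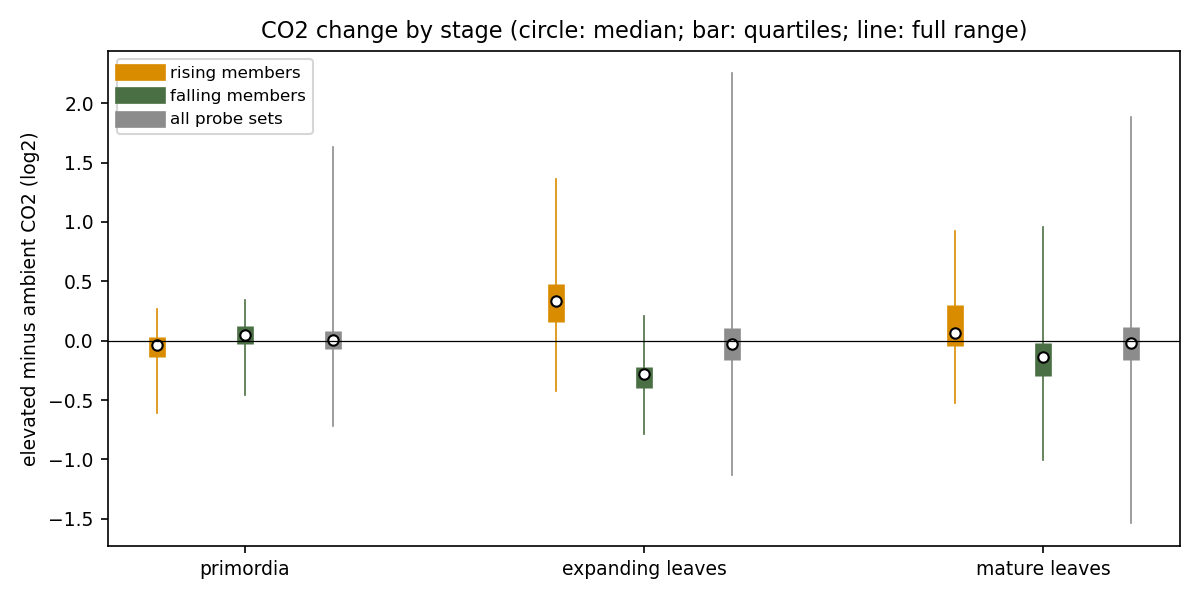
Elevated minus ambient CO2 (log2) at each stage for the 74 rising members, the 130 falling members and all 12511 probe sets; circles are medians, thick bars the quartiles and thin lines the full range. The members' medians are -0.04 and 0.05 in primordia, 0.34 and -0.28 in expanding and 0.07 and -0.14 in mature leaves; ambient arrays that chose the members enter every comparison.

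In mature leaves the median CO2 change was 0.07 in rising and -0.14 in falling members, with 1 rising member lower and, of the falling members, 4 higher and 6 lower at an adjusted p under 0.05. Of all probe sets 1.76% were higher and 2.14% lower. The ambient mature arrays also chose the members, which favours higher elevated values in falling members and lower ones in rising members. The share of called members, 11 of 204, was near this background of 3.9%. The count was 2, 4, 3 and 18 without mature ambient replicates 1, 2, 3 and 4, and 22, 31, 2 and 4 without mature elevated replicates 1, 2, 3 and 4. Without each mature ambient array in turn, the rule took 95, 73, 70 and 73 rising and 184, 119, 127 and 118 falling members. The share of all probe sets called in these reduced fits is not given here. Without elevated replicates 3 and 4 together the count was 1.

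That single remaining gene was AT3G09440. It was at 2.62, 2.64, 2.40 and 2.10 in elevated mature leaves, against 0.94, 1.31, 1.75 and 1.95 in ambient mature leaves. The groups did not overlap, and the change was 0.95 ± 0.16 (adjusted p 0.00576), or 1.14 without elevated replicates 3 and 4 (adjusted p 0.0111, in a range of 0.00142 to 0.129). In elevated plants its maturation step was -0.20 ± 0.18 and not called. The low ambient mature level of AT3G09440 is part of what chose it, so its CO2 change is a description. AT2G28410 was at -1.73, -1.94, -2.06 and -2.05 in elevated mature leaves, against -0.77, -1.26, -1.32 and -1.34 in ambient ones, a change of -0.77 ± 0.12 (adjusted p 0.00319), or of -0.66 without elevated replicates 3 and 4 (adjusted p 0.0811; range 0.0024 to 0.107).

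Of the 18 members grouped by an organelle role, CYTC6A alone was called in mature leaves. It was at -0.63, -0.96, -1.58 and -1.21 at elevated CO2, against -0.02, -0.56, -0.20 and -0.54 at ambient CO2. Its change of -0.77 ± 0.15 (adjusted p 0.0135) was -0.46 (adjusted p 0.201) without elevated replicates 3 and 4. The other called members were AT2G16630 (-0.74 ± 0.16), AT5G66310 (-0.74 ± 0.19), AT3G05180 (-0.65 ± 0.17), AT5G45950 (-0.88 ± 0.25) and AT3G05910 (-0.46 ± 0.13), all lower, and AT1G34380 (0.40 ± 0.10), AT2G31010 (0.44 ± 0.12) and ChiC (0.61 ± 0.16), all higher. None of these was called without elevated replicates 3 and 4, when AT3G05180 was at -0.29, AT5G45950 at -0.20 and AT3G05910 at -0.23.

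The difference of the maturation step between CO2 levels, elevated minus ambient, had a median of -0.21 in rising members, below 0 in 56 of 74 (51.1% of all probe sets), and of 0.14 in falling members, above 0 in 94 of 130 (48.9% of all). By its size the ambient step was thus the larger one in most members, a direction that the choice of members by the ambient step favours. Since that step chose the members, the difference is a description and no test of them. An adjusted p under 0.05 was found for 1 member, ChiC, a class V chitinase, and for 0.032% of all probe sets. Such members numbered 0 when any 1 of 15 of the 22 arrays was left out in turn, and up to 3 otherwise.

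ChiC was at -2.35, -2.27, -1.63 and -2.25 in elevated mature leaves, against -2.36, -2.48 and -2.17 in elevated expanding leaves and -1.55, -1.54, -0.94 and -1.42 in elevated primordia. At ambient CO2 it was at -2.82, -3.05, -2.63 and -2.44 in mature leaves, against -1.64, -1.34 and -1.67 in expanding leaves and -1.31, -1.48, -1.54 and -1.66 in primordia. The gene was thus already low in the expanding leaf at elevated CO2, where it fell by 0.98 ± 0.17 at the early step, and still near its primordium level there at ambient CO2. Its maturation step was 0.21 ± 0.17 at elevated and -1.18 ± 0.17 at ambient CO2, a difference of 1.40 ± 0.25. Next in p were AT3G09440 (1.05 ± 0.25) and AT2G31010 (0.87 ± 0.18) among the falling members, and AT1G21920 (-0.47 ± 0.12), AT1G34110 (-1.10 ± 0.30) and AT2G16660 among the rising ones, all above an adjusted p of 0.05.

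**Figure D5:**
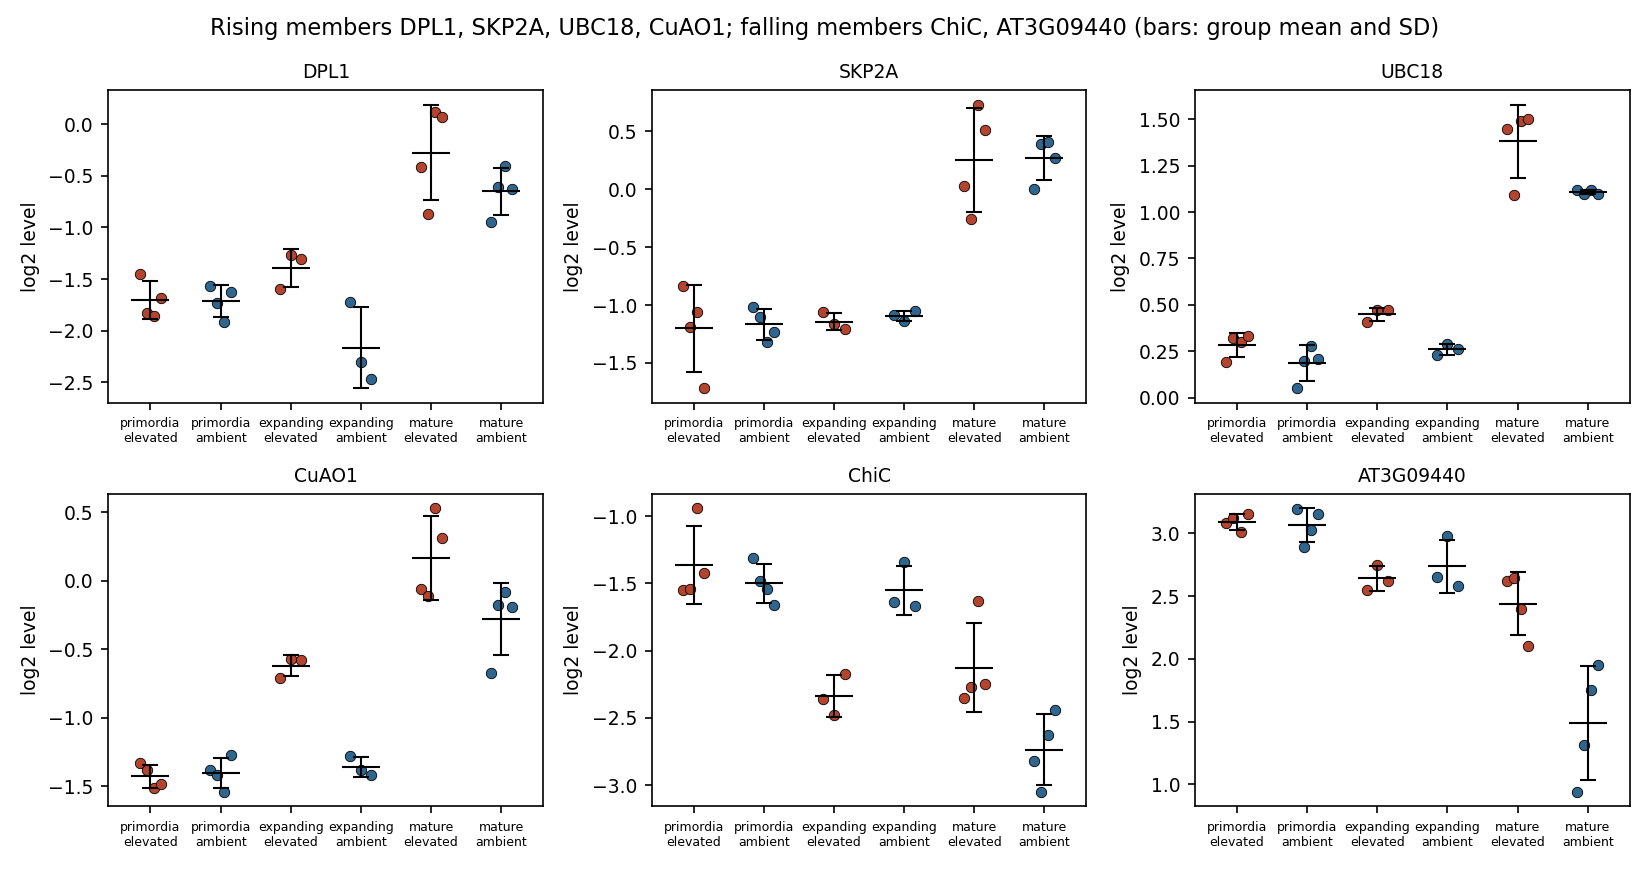
Log2 level in each array of the rising members DPL1, SKP2A, UBC18 and CuAO1 and the falling members ChiC and AT3G09440, with the group mean and SD. SKP2A and UBC18 stay near their primordium level in expanding leaves at both CO2 levels, CuAO1 (-0.71 to -0.57) and ChiC (-2.48 to -2.17) have left it in elevated expanding leaves, and AT3G09440 is lower in ambient (0.94 to 1.95) than in elevated (2.10 to 2.64) mature leaves.

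The members' genes had a median length of 2078.5 bases in the rising and 2329 bases in the falling set, against 2395.5 bases for all probe sets with exactly 1 gene, in the TAIR10.1 gene table. AT2G20740 had a second probe set that is not a member: its ambient maturation step was 0.79, just under the limit, and its elevated one 0.59, where the member probe set was at 0.40 ± 0.11.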

How the data were processed

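RNA of leaf 10 was hybridised to 22 Affymetrix arrays after labelling with a 3-prime kit, per the labels. The deposited log2 values, made by the authors, lie between -6.80 and 6.54 and have a median of 0 in every array; base 2 was inferred from their range. The sources used here do not give the background correction or summarisation. Centring hides a change shared by most transcripts. After 59 control probe sets were left out of 12570, 12511 were fitted. The platform annotation gave exactly 1 gene for 6782, several for 262, and left 5467 unnamed here; 1 member had no match in the TAIR10.1 table and kept its name. No sequences were used.

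The 6 groups were fitted in 1 cell-means model (limma 3.58.1, R 4.3.3, eBayes, 16 residual degrees of freedom). P-values are two-sided, adjusted by Benjamini-Hochberg over all 12511 probe sets, and called under 0.05; ± beside a log2 change is the moderated SE. The number of arrays limits the precision. Labels call the arrays of a group replicates without saying which plants they share.

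Members, 24 gene lists and tests were chosen with earlier results of these data known. Ambient steps chose the members and carry no test; steps at elevated CO2 are independent of that choice. CO2 contrasts share the ambient arrays. Named genes were the 10 largest ambient rises and falls, those at the limits, list members, those with the smallest p for CO2 or for the step difference, those with the smallest maturation and largest early elevated steps, and those with a symbol. In the main fit, replicate numbers were not used to pair samples. Alternatives were array weights, quantile normalization, an intensity trend, separate fits, a level filter, group medians, other limits, a replicate block, and arrays left out. The fit was tested on simulated data.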

Additional observations from a re-analysis of the deposited data

Results flagged for a closer look

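Among 308 groups of 4 arrays, over 75 named probe sets and the member medians, 18 held an array whose gap to its nearest neighbour was a large share of the group's range (above Dixon's critical value); chance flags about 1 in 20 groups. In elevated primordia these were AT5G64550 (gap 0.837 of the range, replicate 4 at -1.35), AT1G34110 (0.843, replicate 4 at -2.79), AT2G36630 (0.831, replicate 1 at -2.27), AT5G66310 (0.88, replicate 4 at -1.90) and AT3G05180 (0.9, replicate 3 at 1.51). In ambient primordia they were AT5G64550 (0.916, replicate 4 at -1.29), AT1G34110 (0.872, replicate 3 at -3.11), NANA (0.894, replicate 4 at -0.16) and ZW9 (0.873, replicate 2 at 2.32). In elevated mature leaves they were UBC18 (0.877, replicate 2 at 1.09), AT3G50900 (0.905, replicate 2 at -0.87), AAPT2 (0.927, replicate 1 at 1.04), ChiC (0.855, replicate 3 at -1.63) and GH9B8 (0.874, replicate 3 at -1.88). In ambient mature leaves they were AT1G62660 (0.904, replicate 1 at 0.65), GSA1 (0.922, replicate 1 at 2.38), AT2G28410 (0.861, replicate 1 at -0.77) and the median level of the rising members (0.831, replicate 1 at -0.38). In each of these 4 from ambient mature leaves it was replicate 1 that lay toward the expanding leaves.

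The maturation step of ChiC differed between elevated and ambient CO2 by 1.4 on the log2 scale in the fit over all probe sets, the only one of 204 members past the threshold. The ambient step in this difference is one that chose the gene, so the value is a description and not an independent test. No member passed when any 1 of 15 of the 22 arrays was left out.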

How the results depend on the processing

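Rising members called higher and falling members called lower at the elevated maturation step numbered 59 and 122. They were 94 and 95 with quantile normalization, which took 124 rising and 104 falling members where the deposited values took 74 and 130, and 20 and 76 among probe sets above the array median. That level filter leaves fewer members to call, and how many it leaves is not given here. With a flat limit of 0.3 there were 48 and 79 members (27 met the rule at both CO2 levels), 38 and 76 called at maturation, 26 and 42 at the early step, and 5 for CO2 in mature leaves. With a step of at least 1.0 these were 34 and 66 members (35 at both), 31 and 62 at maturation, with a rising median of 1.11, and 19 and 39 at the early step. Rising members called at the early step, 43 on the deposited values, numbered 70 with quantile normalization and 16 above the array median. Members called for CO2 in mature leaves were 0 in the separate fit, 5 with array weights, 7 with the replicate block and 1 without mature elevated replicates 3 and 4. In expanding leaves they were 27 with array weights, 2 with quantile normalization and 3 without those replicates. Shares over all probe sets are given for the main fit only. The counts under the alternatives thus show how the number of calls moves and are no CO2 result about the members. The step difference was called for 0 members in the separate fit, with an intensity trend, above the array median and with the replicate block, 2 with array weights and 4 without those replicates. Leaving out 1 array at a time gave 70 to 95 rising and 118 to 184 falling members, 59 to 69 at both CO2 levels, 56 to 76 and 106 to 170 called at maturation, medians of 0.69 to 0.81 and -0.92 to -0.77, 35 to 61 and 60 to 110 at the early step, 2 to 31 for CO2 in mature leaves, 0 to 7 in expanding leaves (7 without expanding ambient replicate 1) and 0 to 3 for the step difference.

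Of 2289 values for the maturation step of 75 named probe sets, 2263 kept direction and side of the threshold, 9 lost and 9 gained a call, and 8 changed sign. These were AT3G50900 with array weights (-0.13), without mature elevated replicates 3 and 4 (-0.09) and without expanding elevated replicate 1 (-0.42), AT2G31010 with array weights (0.01) and quantile normalization (0.11), and EXO without expanding elevated replicate 3 (0.02), mature elevated replicate 1 (0.10) or 4 (0.30). None of these 3 steps was called; over the arrays left out in turn, that of AT3G50900 ran from -0.42 to 0.43 and that of EXO from -0.41 to 0.30. For CO2 in mature leaves 109 of 458 values lost a call and 19 gained one; AT5G45950 was called in 8 of 31 and AT3G05910 in 9 of 31 alternatives. The causes were not tested. Same-numbered arrays correlated between -0.25 and 0.26 in their deviations from group means. With so few arrays per group, this cannot decide whether the numbers pair samples, and the labels do not say.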
